A study of Oryzias latipes with 27 samples.

Results

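The comparison described here set the ovary of XY medaka without a working DMY gene (MT_Fe_Ov) against the ovary of wild-type XX females (WT_Fe_Ov), both at 30 days post hatch (D30). It rested on 6 of the 27 small RNA libraries of the series, 3 per group, chosen by their labels alone, and on all 437 miRNAs in the count table. DMY is the Y-linked gene that starts testis development in medaka, and the MT_Fe_Ov fish carried a TALEN-made disruption of it in the whole body, in a line kept over generations. The deposited labels name them DMY knockout males by chromosomes and give their sex as female and their tissue as ovary. WT_Fe_Ov fish were XX females of the wild type. The testis of wild-type XY males of the same age (WT_Ma_Te, 3 libraries) entered the model as well and is quoted beside the ovary values. DMY encodes a protein and has no miRNA of its own, so the genotype labels could not be checked in these data. Whether a library held 1 animal or several was not given in the sources used here, and the p-values below measure the spread between libraries.

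A miRNA is a short RNA cut from a hairpin precursor, and either strand of the hairpin (the 5p or the 3p arm) can be loaded into Argonaute and lower the translation or stability of mRNAs that pair with its seed. Animal tissues carry characteristic miRNAs: miR-122 belongs to liver, miR-9 and miR-124 to nerve tissue, miR-451 to red blood cells, miR-203 and miR-205 to epidermis, and miR-202 to the gonad of fish. The miR-430 family clears maternal mRNAs in zebrafish embryos, and let-7 marks the timing of differentiation in many animals. Around D30 the medaka ovary holds germ cells at several steps of early oogenesis among somatic cells.

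Mature miRNA sequences were not part of the sources used, but the primers designed by the study cover 3 miRNAs that differed in this comparison, and they show which molecules were meant. The forward primers, 5′ to 3′ and as DNA, were:
miR-30e-2-3p: cgcgctttcagtcggatgt
miR-10b-5p: cgcgtaccctgtagaaccga
miR-146a-5p: cgcgtgagaactgaattccat
The reverse transcription primers ended, in capitals because these bases pair with the 3′ end of the miRNA, in CTGCAA for miR-30e-2-3p, ACAAAT for miR-10b-5p and CCATCT for miR-146a-5p. Each therefore reads a defined arm: miR-30e-2-3p was higher in MT_Fe_Ov, whereas miR-10b-5p and miR-146a-5p were lower.

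The number of miRNA counts, called depth here, differed between the groups. The MT_Fe_Ov libraries held 107271, 54535 and 351194 miRNA counts, against 524342 to 810120 in WT_Fe_Ov. By the mapping summary of the study, total reads differed far less. The share of reads mapped to miRNAs was lower in each MT_Fe_Ov library than in any WT_Fe_Ov library. The part of this difference in the contrast was not tested. Taking 3 counts as the limit that a count of 0 allows, the floor was 28.0, 55.0 and 8.54 RPM (counts scaled to 1000000 miRNA counts per library) in the 3 MT_Fe_Ov libraries, against 3.70 to 5.72 RPM in WT_Fe_Ov, so a low value in MT_Fe_Ov is less certain than a low value in WT_Fe_Ov. These floors cover counting error only. At an equal depth of 54535 counts, 205.4 ± 5.02 miRNAs were expected to be detected in MT_Fe_Ov, against 199.9 ± 4.98 in WT_Fe_Ov (SD, n = 3 each), a difference of 5.56 with an exact two-sided permutation p of 0.3, where 0.1 is the smallest p that 3 against 3 allows. The 10 most abundant miRNAs of each group took 62.5 ± 4.48% of the counts in MT_Fe_Ov and 61.4 ± 1.30% in WT_Fe_Ov (SD, n = 3 each), with an exact permutation p of 0.7. Neither the number of miRNAs nor the share of the leading ones differed beyond the spread between libraries.

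The MT_Fe_Ov libraries differed among themselves in miRNAs that mark other tissues. Neural miRNAs (miR-9, miR-124, miR-153 and miR-219, 18 in the table) summed to 93.2, 385 and 50827 RPM in MT_Fe_Ov replicates 1, 2 and 3, against 114, 296 and 180 RPM in WT_Fe_Ov. Of these 18, 9 were at 0 in every MT_Fe_Ov library and 14 in every WT_Fe_Ov library. Within replicate 3 of MT_Fe_Ov, miR-9-5p alone stood at 39437 RPM and miR-124-3p at 9656 RPM. The sensory cell miRNAs miR-96, miR-182 and miR-183 together were high in the same library, at 10997 RPM, against 214.4 and 110.0 RPM in the other MT_Fe_Ov libraries and 316 to 453.9 RPM in WT_Fe_Ov. Liver miR-122, its 2 arms summed, was highest in MT_Fe_Ov replicate 2, at 38544 RPM, against 1417 and 552 RPM in the other MT_Fe_Ov libraries and 5138 to 10211 RPM in WT_Fe_Ov.
Gut miRNAs (miR-192 and miR-194) were highest in MT_Fe_Ov replicate 1, at 2815 RPM, with 752 and 638 RPM in the other MT_Fe_Ov libraries and 253 to 452 RPM in WT_Fe_Ov. The red cell miR-451-5p, described below, was higher in each MT_Fe_Ov library than in any WT_Fe_Ov library. The plot of tissue sums shows that each MT_Fe_Ov library stood apart in a different tissue, whereas the WT_Fe_Ov libraries lay close together. Their part in the results was not tested beyond leaving out each library in turn, and in bulk tissue fewer cells of a type and less RNA per cell cannot be told apart. The gonadal marker miR-202 was present in every library, at 5153 to 5910 RPM in MT_Fe_Ov and 8647 to 12639 RPM in WT_Fe_Ov, against 127278 to 140263 RPM in testis.

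**Figure D1:**
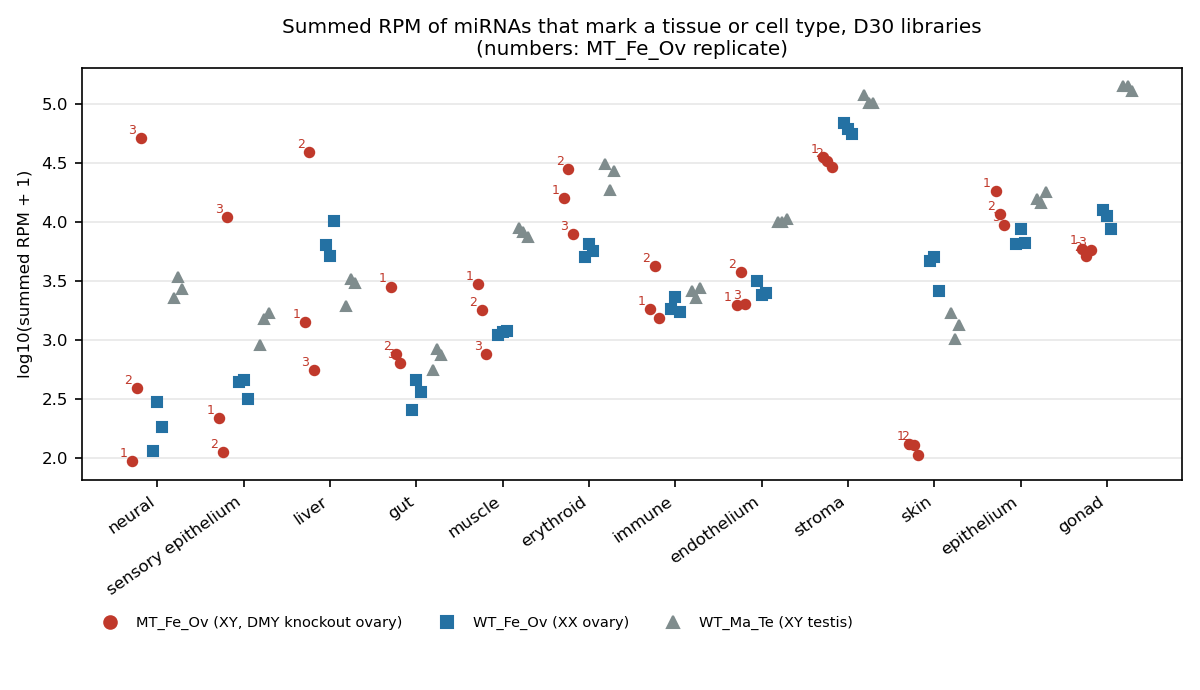
Summed RPM (log10 scale, y axis) of miRNAs that mark a tissue or cell type (x axis) in each D30 library, with points for MT_Fe_Ov, WT_Fe_Ov and WT_Ma_Te and the replicate number beside each MT_Fe_Ov point. Replicate 3 of MT_Fe_Ov reached 50827 RPM of neural miRNAs and replicate 2 reached 38544 RPM of liver miR-122, while skin miRNAs lay between 105 and 131 RPM in MT_Fe_Ov and between 2568 and 5004 RPM in WT_Fe_Ov.

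Of the 437 miRNAs, 250 had at least 10 counts in at least 3 of the 9 D30 libraries and were tested. A miRNA was called a DEM (differentially expressed) where edgeR's quasi-likelihood test gave a Benjamini-Hochberg adjusted p of 0.05 or less over the 250 and the fold was 1 or more on the log2 scale in either direction. There were 71 DEMs, of which 47 were higher in MT_Fe_Ov (18.8% of those tested) and 24 were lower (9.6%), and 93 miRNAs had an unadjusted p under 0.05. The filter counted the testis libraries too. For 13 DEMs WT_Fe_Ov, for 5 MT_Fe_Ov and for 1 both ovary groups held at most 3 counts in each library. These DEMs met the filter only through the remaining libraries. With the 6 ovary libraries alone, 184 miRNAs were tested, of which 27 were called higher and 21 lower. DEMs that then went untested, such as miR-148a-3p and miR-430a-4-3p, were all higher ones. The RPM of MT_Fe_Ov and WT_Fe_Ov libraries did not overlap for 59 of the 71 DEMs, and for 88 of all 250 (35.2%). The median log2 fold change of the 250 was 0.17 with TMM scaling and -0.01 when only library totals were used, a shift of 0.18, so small positive fold changes lie near the centre of all miRNAs. No DEM changed its sign between these scalings. Without MT_Fe_Ov replicate 3, 37 were higher and 29 lower, and 44 of the 71 DEMs (25 higher, 19 lower) stayed called when each of the 6 ovary libraries was left out in turn.

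**Figure D2:**
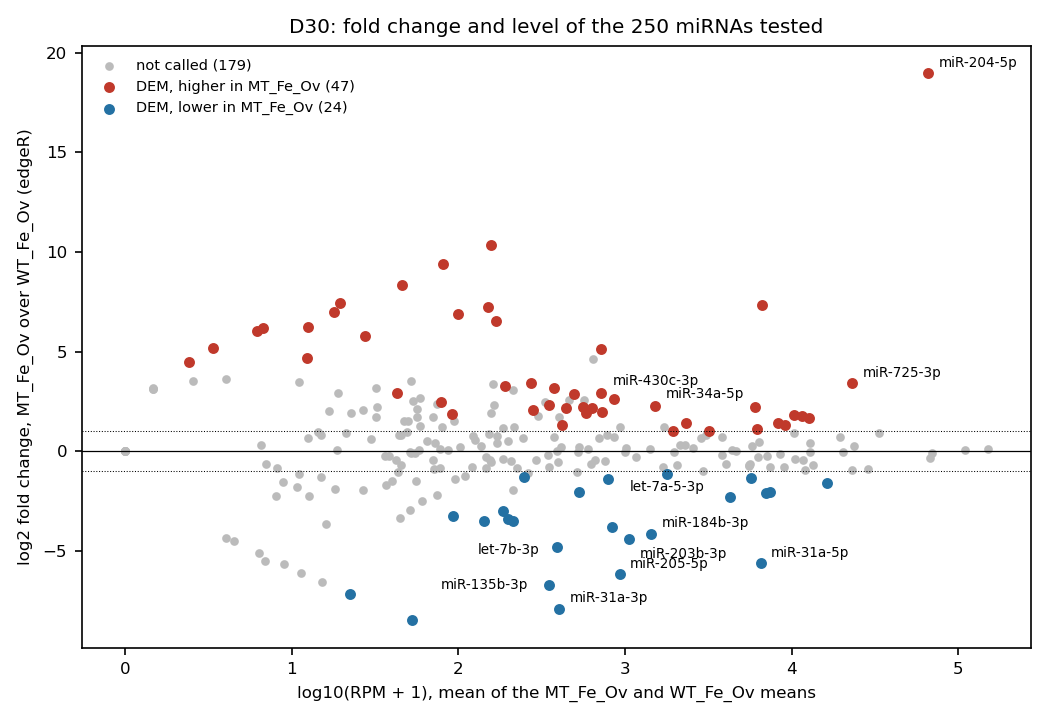
Log2 fold change of MT_Fe_Ov over WT_Fe_Ov (y axis, edgeR) against level (x axis, log10 of RPM + 1, averaged over both groups) for the 250 tested miRNAs, with 47 DEMs higher in MT_Fe_Ov, 24 lower and 179 not called. miR-204-5p lies alone at the top because it was at 0 in each WT_Fe_Ov library, and its plotted value depends on the prior count, as do those of other miRNAs with at most 3 counts in each library of a group.

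The difference with the highest fold concerned miR-204-5p, a miRNA abundant in the eye and in other epithelia of vertebrates. It stood at 134528, 163620 and 96200 RPM in MT_Fe_Ov, against 0, 0 and 0 RPM in WT_Fe_Ov, and at 53670 to 67096 RPM in testis. It was the second most abundant miRNA of MT_Fe_Ov, with 13.1 ± 3.38% of the counts (SD, n = 3), and was not seen once among 1952345 counts of WT_Fe_Ov. Against the mean floor of the WT_Fe_Ov libraries it was at least 27620-fold higher in MT_Fe_Ov (adjusted p = 1.65e-07, edgeR). The only 3p arm of this family in the table, miR-204-2b-3p, was at 131, 0 and 0 RPM in MT_Fe_Ov and at 40.7, 170 and 84.2 RPM in WT_Fe_Ov, with a log2 fold change of -0.90 ± 1.41 (SE) that did not pass the test (adjusted p = 0.680).
The WT_Fe_Ov libraries of D30 were the only 3 of all 27 libraries with no count of miR-204-5p. At D10 it was at 24749 to 36352 RPM in MT_Fe_Ov and 20311 to 29392 RPM in WT_Fe_Ov, and at D120 at 13522 to 16634 RPM in MT_Fe_Ov and 8811 to 16979 RPM in WT_Fe_Ov. Both ovary groups thus overlapped at the earlier and the later stage. How the zeros at D30 arose, before or after sequencing, was not tested. An abundant miRNA at 0 was also seen within a group, where miR-26a-2/3-ba-5p was at 0 in 1 MT_Fe_Ov library of D10, against 79037 and 89361 RPM in its replicates. The annotated hairpin mir204 lies on chromosome 9 (ASM223467v1, 16562225 to 16562320) within the gene LOC100533512.

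Other miRNAs that were higher in MT_Fe_Ov were present in both groups. miR-725-3p, a miRNA described in fish, was at 64761, 39094 and 19385 RPM in MT_Fe_Ov, against 7401, 4228 and 2802 RPM in WT_Fe_Ov, and at 11129 to 17980 RPM in testis. It was the sixth most abundant miRNA of MT_Fe_Ov and the 41st of WT_Fe_Ov, 8.54-fold higher (log2 fold change 3.40 ± 0.45 SE, adjusted p = 0.000615), and the MT_Fe_Ov libraries lay above the testis libraries too. Its 5p arm was at 65.3, 220 and 76.9 RPM in MT_Fe_Ov and 56.8, 0 and 22.7 RPM in WT_Fe_Ov and did not pass the test. miR-34a-5p, which in mammals is induced by p53 and restrains the cell cycle, was even across replicates: 2489, 2787 and 1993 RPM in MT_Fe_Ov, against 498.7, 713 and 609 RPM in WT_Fe_Ov, a 3.99-fold difference (log2 fold change 2.26 ± 0.27 SE, adjusted p = 0.000328). The MT_Fe_Ov values overlapped those of testis, at 2200 to 2491 RPM.

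miR-727a-5p, another miRNA described in fish, was at 764, 1045 and 193.6 RPM in MT_Fe_Ov and 22.2, 68.7 and 142.4 RPM in WT_Fe_Ov, 8.59-fold higher with a wide error (log2 fold change 3.18 ± 0.78 SE, adjusted p = 0.0129). miR-145-5p, which marks smooth muscle, was at 1193, 2585 and 547 RPM in MT_Fe_Ov and 220, 517 and 84.2 RPM in WT_Fe_Ov, 5.27-fold higher (adjusted p = 0.0122), and was no longer called without MT_Fe_Ov replicate 2. The hairpin of miR-143 lies beside that of miR-145 on chromosome 10 (mir143 at 4587604 to 4587712, mir145 at 4587826 to 4587885, ASM223467v1), and miR-143-3p went the other way. It was at 6134, 8197 and 6686 RPM in MT_Fe_Ov, against 27081, 22319 and 27220 RPM in WT_Fe_Ov and 66165 to 79698 RPM in testis, 3.65-fold lower in MT_Fe_Ov (log2 fold change -1.59 ± 0.24 SE, adjusted p = 0.00125). The neighbouring hairpins thus gave mature miRNAs with opposite directions. Of the 6 tested members of the stroma list (miR-143, miR-145, miR-199 and miR-214), 1 was higher, 2 were lower and 3 were not called. Over all tested miRNAs, 18.8% were higher and 9.6% lower. Besides miR-143-3p, miR-199-5p was lower (log2 fold change -1.27), a call lost without any 1 of the testis libraries. It was also lost without WT_Fe_Ov replicate 1 or 2, without MT_Fe_Ov replicate 2 or 3, and with the 6 ovary libraries alone (adjusted p = 0.170, edgeR). Members of the list that were not called included miR-199-3p and miR-214-3p. The list summed to 28819 to 35462 RPM in MT_Fe_Ov and 55279 to 68018 RPM in WT_Fe_Ov.

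miR-22, widely expressed in vertebrates, was in none of the lists, and its members beyond miR-22a-2-3p were added after their calls were seen. It had 4 DEMs, all higher, where 18.8% of all tested miRNAs were higher. Because of that choice, the count is no test of the family. Its remaining tested member, miR-22a-1-5p, was not called (log2 fold change 0.67). miR-22a-2-3p was at 904, 1247 and 521 RPM in MT_Fe_Ov and 315, 200 and 173 RPM in WT_Fe_Ov, 3.88-fold higher (adjusted p = 0.00170), with miR-22a-1-3p, miR-22b-3p and miR-22b-5p between 2.27-fold and 3.60-fold higher. The call on miR-22b-5p, at 214.4, 110.0 and 82.6 RPM in MT_Fe_Ov and 33.99 to 54.3 RPM in WT_Fe_Ov, was lost with library totals, without MT_Fe_Ov replicate 1 and without each WT_Fe_Ov or testis library. The gut miRNA miR-194a-5p was at 1147, 312 and 225 RPM in MT_Fe_Ov and 124.7, 162 and 129 RPM in WT_Fe_Ov (4.04-fold, adjusted p = 0.0240). It was highest in the library with the most gut miRNAs, and the call was lost without that library, with a log2 fold change of 1.22, and without each WT_Fe_Ov library. miR-451-5p was at 15913, 27964 and 7779 RPM in MT_Fe_Ov, against 5024, 6433 and 5647 RPM in WT_Fe_Ov and 18338 to 30509 RPM in testis, 3.02-fold higher (adjusted p = 0.00540). miR-223, a miRNA of myeloid blood cells, was higher in both arms, with miR-223-3p at 643, 1632 and 715 RPM in MT_Fe_Ov and 404, 221.2 and 176 RPM in WT_Fe_Ov (3.73-fold, adjusted p = 0.00378). Of the 8 tested members of the immune list, 2 were higher, 1 was lower and 5 were not called, where 18.8% of all tested miRNAs were higher and 9.6% lower. The median log2 fold change of the list was 0.13, and miR-150-5p (0.17) was among those not called. The red cell miR-144-3p reached 2.85 RPM in 1 MT_Fe_Ov library, was at 0 in the other 5 ovary libraries, and was not called. The part of blood cells in the other differences was not tested.

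**Figure D3:**
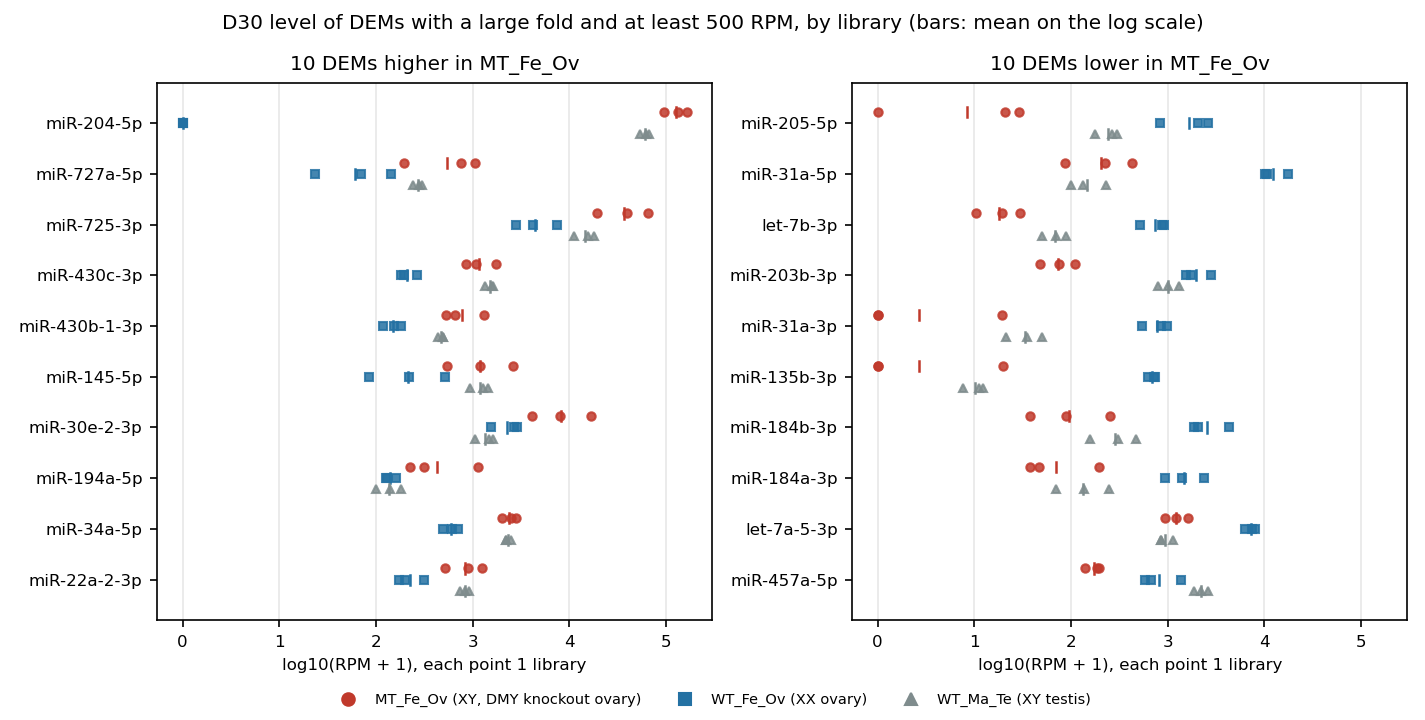
Level (x axis, log10 of RPM + 1) of 10 DEMs higher (left) and 10 lower (right) in MT_Fe_Ov, 1 point per D30 library of MT_Fe_Ov, WT_Fe_Ov and WT_Ma_Te, with bars for the mean on the log scale. MT_Fe_Ov and WT_Fe_Ov points do not overlap for any of the 20, which the choice of the 20 required, and miR-204-5p is at 0 in all 3 WT_Fe_Ov libraries.

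In the miR-430 family each tested member was higher. Of its 11 miRNAs in the table, 4 were tested and 4 were higher in MT_Fe_Ov, where 18.8% of all tested miRNAs were higher. Their median log2 fold change was 3.17, against 0.17 over all tested. miR-430c-3p was at 1072, 843 and 1728 RPM in MT_Fe_Ov, against 268, 179 and 193 RPM in WT_Fe_Ov and 1351 to 1624 RPM in testis (5.70-fold, adjusted p = 0.00124). miR-430b-1-3p was at 662, 532 and 1301 RPM in MT_Fe_Ov and 152, 181.2 and 117 RPM in WT_Fe_Ov (5.55-fold, adjusted p = 0.00312). miR-430a-4-3p was at 158, 128 and 191 RPM in MT_Fe_Ov and at 0 in each WT_Fe_Ov library, at least 33.5-fold higher (adjusted p = 0.000375), and miR-430a-1-3p was 8.13-fold higher. With no count in WT_Fe_Ov, miR-430a-4-3p met the count filter only through MT_Fe_Ov and testis, and it could not have come out lower. It was not tested with the 6 ovary libraries alone. The family summed to 2461, 1705 and 3995 RPM in MT_Fe_Ov, against 454.3, 446 and 377 RPM in WT_Fe_Ov. The testis sums, 2167 to 2669 RPM, fell inside the range of MT_Fe_Ov. Members of the family are nearly identical in sequence, so reads may be shared among them, and the 4 are not independent. The annotated hairpins mir430b-1 and mir430a-1 lie close together on chromosome 4 (ASM223467v1), at 1917935 to 1918016 and 1919169 to 1919250.

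The miR-29 family, which in mammals represses collagen mRNAs, had 11 members in the table, 7 of them tested. Of these, 4 were higher and 3 not called, where 18.8% of all tested miRNAs were higher. The median log2 fold change was 3.46 (2.44 with members at the floor set to their bound). miR-29b-2a-5p was at 438, 220 and 273 RPM in MT_Fe_Ov and at 0 in each WT_Fe_Ov library, at least 65.2-fold higher (adjusted p = 0.000299). miR-29b-1a-3p was at 354, 385 and 157 RPM in MT_Fe_Ov, against 2.47, 0 and 3.24 RPM in WT_Fe_Ov, at least 62.7-fold higher (adjusted p = 0.000162). Its opposite arm, miR-29b-1a-5p, was at 0, 0 and 17.1 RPM in MT_Fe_Ov and at 115, 122.1 and 46.9 RPM in WT_Fe_Ov. That arm did not pass the test (adjusted p = 0.0944), but the arm that held more counts was the 3p arm in each MT_Fe_Ov library and the 5p arm in each WT_Fe_Ov library. The family stood at 2879 to 3549 RPM in testis, above both ovary groups. With no count in WT_Fe_Ov, miR-29b-2a-5p and miR-29a-1-5p met the count filter only through MT_Fe_Ov and testis, and they could not have come out lower. miR-29b-1a-3p, with at most 3 counts in each WT_Fe_Ov library, also met the filter only through MT_Fe_Ov and testis. Of the 4 higher members, miR-29a-1-5p was not tested with the 6 ovary libraries alone, and miR-29a-3p was then not called (adjusted p = 0.0565, edgeR). The call on miR-29a-3p was also lost with thinned counts.

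The miR-30 family had 11 members, of which 9 were tested, 5 were higher and 4 were not called, with a median log2 fold change of 1.91. Over all tested miRNAs, 18.8% were higher. miR-30e-2-3p, one of the primer targets printed above, was at 8017, 16650 and 4154 RPM in MT_Fe_Ov, against 2664, 2882 and 1541 RPM in WT_Fe_Ov and 1048 to 1611 RPM in testis (4.07-fold, log2 fold change 2.24 ± 0.38 SE, adjusted p = 0.00301). It was lowest in testis, so the MT_Fe_Ov ovary was not between the other groups for this miRNA. miR-30c-1-5p and miR-30c-2-5p were each 3.37-fold higher, at 421 to 1705 and 587 to 1889 RPM in MT_Fe_Ov and at 189 to 335 and 186 to 476 RPM in WT_Fe_Ov, and these copies may share reads. Without WT_Fe_Ov replicate 2, 3 of the 5 calls were lost (miR-30c-1-5p, miR-30e-1-3p and miR-30e-5p), and miR-30e-5p was also not called without MT_Fe_Ov replicate 3, with a log2 fold change of 0.58, or without any 1 of the other WT_Fe_Ov or the testis libraries. With the 6 ovary libraries alone, miR-30e-5p was not tested and miR-30e-1-3p was not called (adjusted p = 0.0684, edgeR). The call on miR-30e-1-3p was also lost with library totals, with thinned counts, and without WT_Fe_Ov replicate 3 or MT_Fe_Ov replicate 2. miR-30a-5p, at 1342, 2420 and 1415 RPM in MT_Fe_Ov and 2740, 2828 and 1099 RPM in WT_Fe_Ov, was not called (log2 fold change -0.06).

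Among miRNAs that were lower in MT_Fe_Ov, miR-31a, an epithelial miRNA in mammals, was the most abundant with a large fold, and both arms moved. miR-31a-5p was at 224, 422 and 85.4 RPM in MT_Fe_Ov, against 10074, 10756 and 17477 RPM in WT_Fe_Ov, 52.4-fold lower (log2 fold change -5.63 ± 0.60 SE, adjusted p = 0.000256). miR-31a-3p was at 0, 18.3 and 0 RPM in MT_Fe_Ov and 989, 542 and 858 RPM in WT_Fe_Ov, at least 26.1-fold lower (adjusted p = 0.000615). Testis held 100 to 227 RPM of the 5p arm, so MT_Fe_Ov overlapped testis and not WT_Fe_Ov. At D120 both ovaries held much of it, with 973 to 11306 RPM in MT_Fe_Ov and 3168 to 4886 RPM in WT_Fe_Ov, while at D10 they held 118 to 159 RPM in MT_Fe_Ov and 93.4 to 171 RPM in WT_Fe_Ov.

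The epidermal miRNAs were lower as well. miR-205-5p was at 28.0, 0 and 19.9 RPM in MT_Fe_Ov, against 2635, 2046 and 835 RPM in WT_Fe_Ov and 178 to 298 RPM in testis, 60.3-fold lower against the mean floor of the MT_Fe_Ov libraries, which their mean did not reach (log2 fold change -6.16 ± 0.70 SE, adjusted p = 0.000299). The MT_Fe_Ov values were at most 3 counts in replicates 1 and 2 and 7 counts in replicate 3. miR-203b-3p was at 46.6, 110 and 74.0 RPM in MT_Fe_Ov, against 1731, 2800 and 1560 RPM in WT_Fe_Ov and 792 to 1301 RPM in testis, 26.4-fold lower (adjusted p = 0.000162). Of the 5 miR-203 and miR-205 members in the table, 4 were tested, 2 were lower and 2 were not called, where 9.6% of all tested miRNAs were lower. The summed level of the 5 was 130.5, 128 and 105 RPM in MT_Fe_Ov and 4661, 5004 and 2568 RPM in WT_Fe_Ov, and whether epidermis was taken with the gonad was not tested. For miR-205-5p and miR-203b-3p the MT_Fe_Ov libraries lay below each of the 21 libraries outside the comparison, whose lowest values were 178 RPM and 792 RPM. The MT_Fe_Ov libraries lay below the 21 in 64 of all 250 tested miRNAs, some of which had their lowest outside value under the MT_Fe_Ov floors.
Other epithelial miRNAs did not follow: miR-429a-3p was 2.07-fold higher in MT_Fe_Ov (17181, 10727 and 8904 RPM against 4847, 7249 and 5681 RPM in WT_Fe_Ov, adjusted p = 0.00947), and miR-200a-3p and miR-200b-3p, with log2 fold changes of -0.56 and -0.63, were not called.

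miR-184, known from the cornea and other surface epithelia of vertebrates, was lower in both of its copies. miR-184b-3p was at 252, 36.7 and 88.3 RPM in MT_Fe_Ov and 1874, 2064 and 4258 RPM in WT_Fe_Ov, 21.8-fold lower (adjusted p = 0.00378), and miR-184a-3p was 17.0-fold lower (adjusted p = 0.00716). The copies may share reads. miR-135b-3p was at 18.6, 0 and 0 RPM in MT_Fe_Ov and 716, 744 and 620 RPM in WT_Fe_Ov, at least 22.7-fold lower (adjusted p = 0.00125). Its other arm, miR-135b-5p, reached only 1.62 to 14.8 RPM in WT_Fe_Ov and was at 0 in MT_Fe_Ov. Among the 21 other libraries miR-135b-3p did not exceed 17.8 RPM, so here it was WT_Fe_Ov of D30 that stood apart. When 1 WT_Fe_Ov library was left out, this miRNA was no longer tested because fewer than 3 libraries held 10 counts. It thus met the count filter only through WT_Fe_Ov, the group where it was high, and it could not have come out higher in MT_Fe_Ov. miR-457a-5p was at 195.8, 183.4 and 140 RPM in MT_Fe_Ov, against 1386, 574 and 678 RPM in WT_Fe_Ov and 1873 to 2600 RPM in testis, 5.09-fold lower (adjusted p = 0.00378).

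In the let-7 family the called 3p arms were lower and the called 5p arm was higher, a difference between arms that was not tested. Of its 23 members 20 were tested: 10 5p arms, with 1 higher, 0 lower and a median log2 fold change of 0.25, and 10 3p arms, with 0 higher, 4 lower and a median of -2.05. Over all tested miRNAs, 18.8% were higher and 9.6% lower. The let-7 3p arms, which are the minor products of these hairpins, summed to 1286, 1669 and 1441 RPM in MT_Fe_Ov, against 7979, 9961 and 10000.3 RPM in WT_Fe_Ov and 1763 to 2028 RPM in testis. let-7a-5-3p carried most of this, at 1203, 1614 and 940 RPM in MT_Fe_Ov and 6310, 7499 and 8055 RPM in WT_Fe_Ov, 5.82-fold lower (log2 fold change -2.30 ± 0.28 SE, adjusted p = 0.000361). let-7b-3p was at 9.32, 18.3 and 28.5 RPM in MT_Fe_Ov and 511, 866 and 918 RPM in WT_Fe_Ov, 25.1-fold lower against the mean floor of the MT_Fe_Ov libraries, 30.5 RPM, which their mean did not reach (adjusted p = 0.000615). let-7a-3-3p was 11.3-fold and let-7h-1-3p 13.2-fold lower against the same floor, and the call on let-7h-1-3p was lost without any 1 of the WT_Fe_Ov libraries.
The 5p arms made up 291980, 175832 and 355237 RPM in MT_Fe_Ov and 346867, 272523 and 335962 RPM in WT_Fe_Ov. Among them let-7b-5p and let-7d-5p lay lower in each MT_Fe_Ov library than in any WT_Fe_Ov library, at 9006 to 21472 and 15430 to 20891 RPM in MT_Fe_Ov and 26242 to 35321 and 33697 to 48715 RPM in WT_Fe_Ov, with log2 fold changes of -0.95 and -0.89 that missed only the fold threshold (adjusted p = 0.0249 and 0.0426). Both were called lower with library totals alone and in the fit of all 27 libraries, and let-7b-5p also with DESeq2 and with RLE scaling. let-7j-5p was the 1 DEM among the 5p arms, at 16855, 9168 and 27896 RPM in MT_Fe_Ov and 7879, 6494 and 8115 RPM in WT_Fe_Ov (2.40-fold higher, adjusted p = 0.0234), but it was not called without MT_Fe_Ov replicate 3 or without any 1 of the WT_Fe_Ov libraries. let-7a-5-3p and let-7b-3p in WT_Fe_Ov lay above all 21 libraries outside the comparison, whose highest values were 1137 and 102 RPM. The WT_Fe_Ov libraries lay above the 21 in 27 of all 250 tested miRNAs.

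**Figure D4:**
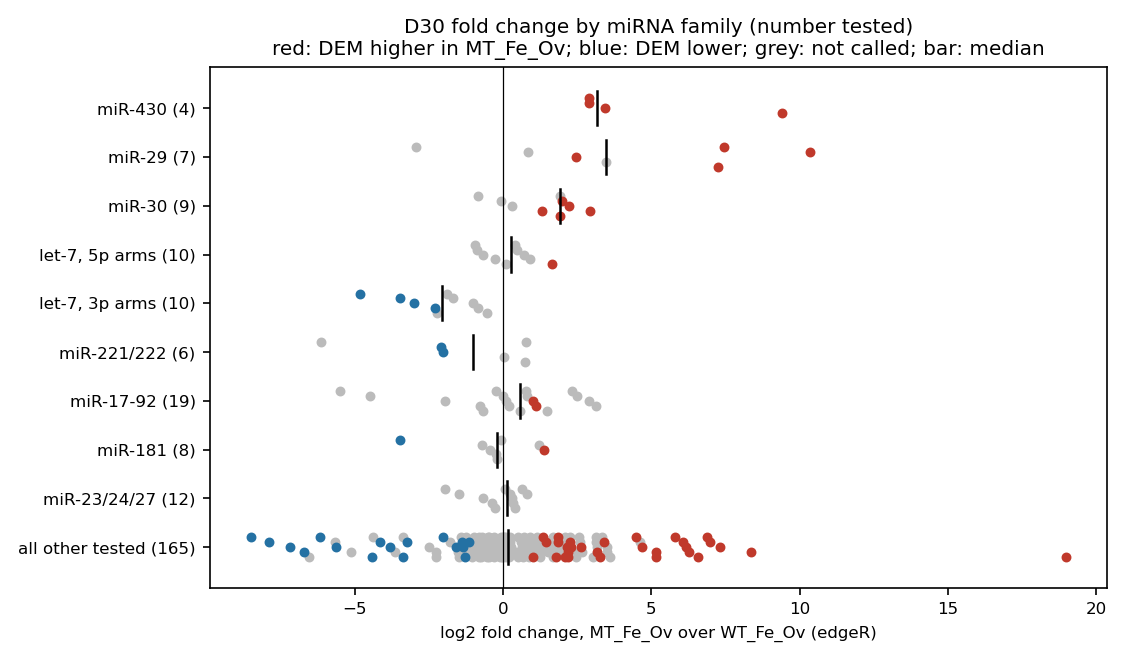
Log2 fold change of MT_Fe_Ov over WT_Fe_Ov (x axis, edgeR) of each tested miRNA by family (y axis, number tested in brackets), with DEMs in colour, other miRNAs in grey and a bar at the median. The 4 tested miR-430 members lie to the right and the 10 let-7 3p arms to the left of 0, while the let-7 5p arms lie on both sides.

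Arms were paired where their names differed only in 5p or 3p, which gave 49 hairpins with both arms tested. Both arms were called in the same direction in 3 (miR-31a, miR-223 and miR-22b) and in opposite directions in 0. A single arm was called in 19, and neither arm in 27. Arms named without a copy number were left unpaired, such as miR-29a-3p and miR-30e-5p. These were called higher, as were miR-29a-1-5p, miR-30e-1-3p and miR-30e-2-3p. Of 123 tested 3p arms, 22 were higher and 17 lower in MT_Fe_Ov, and of 127 tested 5p arms, 25 were higher and 7 lower, a difference between arms that was not tested.

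Further DEMs fell in named families. miR-222a-3p and miR-222c-3p, of a family that in mammals represses cell cycle inhibitors, were 4.48-fold and 4.66-fold lower, at 1005 to 4529 and 917 to 4034 RPM in MT_Fe_Ov and at 7066 to 17670 and 6793 to 16811 RPM in WT_Fe_Ov. The copies may share reads. Their relative miR-221-3p, at 224, 678 and 208 RPM in MT_Fe_Ov and 555, 236 and 440 RPM in WT_Fe_Ov, was not called. miR-375a-3p, a miRNA of endocrine cells, was at 3645, 3374 and 1506 RPM in MT_Fe_Ov and 9666, 8945 and 7272 RPM in WT_Fe_Ov, 3.04-fold lower (adjusted p = 0.00784). miR-10b-5p and miR-196a-5p, whose annotated hairpins matched by name overlap hoxd3 on chromosome 21 and hoxc8 on chromosome 7, differed in direction. Their 3p arms in the table carry copy numbers (miR-10b-1-3p and miR-10b-2a-3p, miR-196a-1-3p and miR-196a-2-3p). Each 5p arm may therefore come from further hairpins, and its level cannot be tied to a single locus. miR-10b-5p was at 438, 532 and 188 RPM in MT_Fe_Ov and 1311, 1381 and 858 RPM in WT_Fe_Ov (3.07-fold lower, adjusted p = 0.0155). It was not called with the 6 ovary libraries alone (adjusted p = 0.0684, edgeR). miR-196a-5p was at 28032, 12139 and 5980 RPM in MT_Fe_Ov and 5373, 4661 and 5342 RPM in WT_Fe_Ov (3.00-fold higher, adjusted p = 0.0136), a difference that was not called without WT_Fe_Ov replicate 2.
miR-146a-5p, which in mammals damps inflammatory signalling, was at 18.6, 0 and 42.7 RPM in MT_Fe_Ov and 244, 662 and 216.9 RPM in WT_Fe_Ov, 12.3-fold lower against the mean floor of the MT_Fe_Ov libraries (adjusted p = 0.0106).
The families miR-23/24/27 (12 tested), miR-26 (5), miR-21 (3) and miR-130, miR-301 and miR-454 (7 together) had no DEM, with medians of 0.14, -0.33, 0.00 and 1.51. Of 19 tested miR-17-92 members, 2 were higher, and of 8 tested miR-181 members, 1 was higher and 1 lower. Over all tested miRNAs, 18.8% were higher and 9.6% lower.

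Several calls rested on 1 library. miR-9-5p was at 74.6, 91.7 and 39437 RPM in MT_Fe_Ov and 64.2, 170 and 128 RPM in WT_Fe_Ov, and its log2 fold change of 7.32 became -0.41 without MT_Fe_Ov replicate 3. miR-182a-5p, miR-135a-2-5p and miR-190b-5p, at 3935, 988 and 572 RPM in that library, were likewise not called without it. miR-100-2-3p, miR-101a-3p, miR-137-2a-3p and miR-734-3p had counts in that MT_Fe_Ov library only and were at 0 in the other 5 ovary libraries, so they had no fold that could be given beyond the floor or a bound of at most 2.39-fold. In all, 16 of the 71 calls were lost and 55 kept without MT_Fe_Ov replicate 3, against 67 and 65 kept without replicates 1 and 2. Without each WT_Fe_Ov library in turn, 52, 54 and 52 were kept, and without each testis library 55, 53 and 55. Among the MT_Fe_Ov libraries, leaving out replicate 3 thus lost the most calls. Leaving out a WT_Fe_Ov or testis library kept no more calls, but those fits also tested fewer miRNAs (226 to 242, against 247 without MT_Fe_Ov replicate 3).

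The most abundant miRNAs were mostly shared. let-7a-3-5p led both groups, with 13.8 ± 4.95% of the counts in MT_Fe_Ov and 16.4 ± 1.99% in WT_Fe_Ov (SD, n = 3 each), and miR-92a-3p took 10.2 ± 3.15% and miR-181a-5p 5.88 ± 3.04% in MT_Fe_Ov, against 11.5 ± 3.53% and 8.05 ± 1.22% in WT_Fe_Ov. None of the 3 was called. miR-26a-2/3-ba-5p, at 5.14 ± 1.34% in MT_Fe_Ov and 8.27 ± 0.485% in WT_Fe_Ov, was not called either (log2 fold change -0.33). let-7d-5p and let-7b-5p ranked 12th and 15th in MT_Fe_Ov and 5th and 6th in WT_Fe_Ov. Among the 10 most abundant of MT_Fe_Ov, miR-204-5p, miR-725-3p and let-7j-5p were DEMs, and among the 10 of WT_Fe_Ov, miR-143-3p was.

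RPM was also set beside the 21 libraries outside the comparison (all of D10 and D120, and testis at D30). Over all 250 tested miRNAs, the MT_Fe_Ov libraries all lay above the 21 in 11 and below them in 64, and the WT_Fe_Ov libraries above in 27 and below in 63. In some of those below, the lowest of the 21 lay under the floors. For miR-21a-3p, at 0 in both ovary groups, it was 1.59 RPM. A place below them there rests on counts of 0, which depth limits, most of all in MT_Fe_Ov. Of the 47 DEMs higher in MT_Fe_Ov, the MT_Fe_Ov libraries all lay above the 21 in 6 and below them in 6, and the WT_Fe_Ov libraries below in 20 and above in 0. Of the 24 lower DEMs, the MT_Fe_Ov libraries all lay below the 21 in 8 and the WT_Fe_Ov libraries above in 8 and below in 1. Among the 179 miRNAs that were not called, the MT_Fe_Ov libraries lay below in 50 and the WT_Fe_Ov libraries in 42.

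The same contrast was small at the other stages. At D10, edgeR called 0 of 388 tested miRNAs between MT_Fe_Ov and WT_Fe_Ov, with 11 at an unadjusted p under 0.05, and at D120 it called 2 of 344, with 16 under 0.05. Those 2, named because they were the only ones, were miR-202-5p, at 0 in each MT_Fe_Ov library of D120 against a mean of 259882 RPM in WT_Fe_Ov, and miR-21-5p, with means of 225176 RPM in MT_Fe_Ov and 1327 RPM in WT_Fe_Ov. A leading miRNA at 0 in each library of 1 ovary group was therefore also seen at D120, in the other genotype. The change of the contrast itself was tested on all 27 libraries. The D30 minus D120 difference was called for 86 of 399 miRNAs (21.6%) and the D30 minus D10 difference for 100 of 399 (25.1%), and 58 and 61 of the 71 D30 DEMs were among them with the same direction. These comparisons share the D30 libraries, so their calls are not independent of one another. At D120 the log2 fold changes of the miR-430 members lay below 0, at -1.12 ± 0.49 (SE) for miR-430c-3p and -2.07 ± 0.74 for miR-430b-1-3p, neither called, and 1 WT_Fe_Ov library of D120 stood at 1467 and 278 RPM while the other 2 held at most 377 and 33.8 RPM. The D10 samples held tissue beside the gonad, per the methods of the study, so stage and sampled tissue cannot be told apart.

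**Figure D5:**
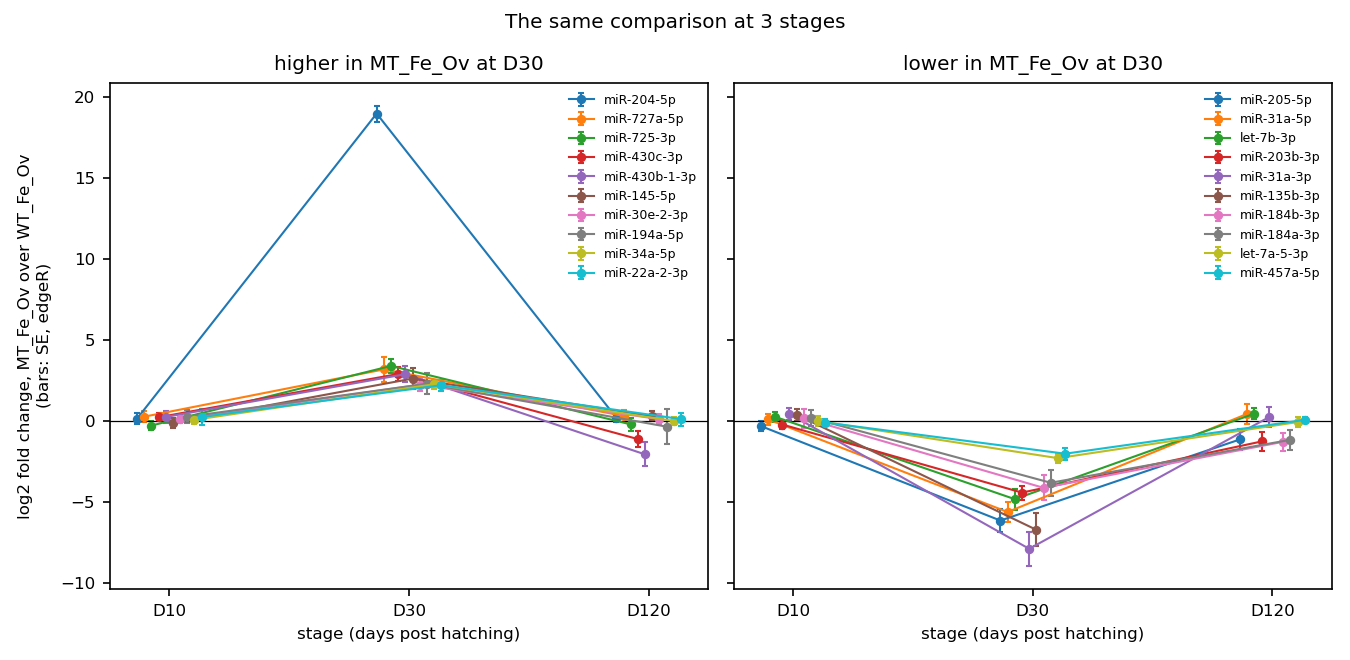
Log2 fold change of MT_Fe_Ov over WT_Fe_Ov (y axis, bars for the SE, edgeR) at D10, D30 and D120 (x axis) for the 10 DEMs higher (left) and 10 lower (right) at D30, each stage fitted on its own 9 libraries. Values lie away from 0 at D30, which the choice of these DEMs required, and near 0 at D10, and miR-135b-3p was not tested at D120.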

How the data were processed

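Gel-selected small RNA was sequenced by the authors on an Illumina instrument. The deposited table gives each mature miRNA as a whole-number count per library, and the deposited RPM values were scaled by the authors to the summed miRNA counts of each library. Per the methods of the study, reads longer than 17 nt were mapped to ASM223467v1 with miRDeep2 and counted on FishmiRNA entries. How reads that match near-identical copies were divided is not given in the sources used here. RPM recomputed from the counts differed from the deposited values by at most 4.97e-05.

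Counts of the 9 D30 libraries were tested with edgeR 4.0.16 (R 4.3.3): TMM scaling, the quasi-likelihood F test, Benjamini-Hochberg adjustment, and a minimum of 10 counts in 3 libraries. The D30 minus D120 and D30 minus D10 differences were interaction terms fitted on all 27 libraries. SE was the absolute log2 fold change divided by the square root of F. Folds are ratios of mean RPM. Where each library of the lower group had at most 3 counts, or its mean lay under its mean floor, the mean floor stood in for its mean; the choice of miRNAs named first used the ratio of means in the second case. Per-library values used exact two-sided permutation tests (scipy 1.17.1). The code was tested on simulated data.

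No replicate pair agreed within sampling noise: among the 6 pairs within the ovary groups chi-square divided by its degrees of freedom was 75.3 or more. Pearson's r on log2(RPM + 1) over 437 miRNAs was 0.848 to 0.886 between MT_Fe_Ov libraries and 0.925 to 0.930 between WT_Fe_Ov libraries. Floors of 3 counts cover counting error only.

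The miRNAs named first are the 10 DEMs per direction with the largest fold, among those whose RPM did not overlap and averaged at least 500 RPM in the higher group. Further miRNAs were taken from the opposite arms of these, the 10 leading miRNAs by level in either group and members of the lists that were DEMs or reached 1000 RPM. Not every miRNA of these sets is named. Beyond this rule, low-count DEMs that 1 library decided, and miR-29b-1a-5p, were named after their values were seen. Also outside the rule were miR-148a-3p and the miR-22 members other than miR-22a-2-3p. So were miR-144-3p, miR-200a-3p, miR-200b-3p and miR-221-3p, list members that were neither DEMs nor at 1000 RPM. The miRNAs, lists and tests were chosen with earlier results of these data known. Hairpins were matched by exact name to RefSeq (28 of 81 looked up). Alternatives were DESeq2 1.42.0, RLE, library totals, other filters and thresholds, a replicate block, 6 or 27 libraries, thinned counts and leaving out each library. A further alternative, removing miR-204-5p before scaling, was chosen after seeing the data.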

Additional observations from a re-analysis of the deposited data

Results flagged for a closer look

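The difference between MT_Fe_Ov and WT_Fe_Ov at D30 was itself larger or smaller than that at another stage for 19 of the 20 DEMs named first (10 per direction, by fold, among those averaging at least 500 RPM in the higher group with no overlap of RPM), by a test of the change in the contrast (edgeR, interaction term on all 27 libraries, Benjamini-Hochberg over 399 miRNAs). Over all 399, the share called was 21.6% for D30 minus D120 and 25.1% for D30 minus D10. Values for the 19 are log2 differences, D30 minus D120 first and D30 minus D10 second, and all had an adjusted p of at most 0.0431. The exception was miR-194a-5p, with differences of 2.42 (adjusted p = 0.162) and 1.87 (adjusted p = 0.278).

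Above 0 were miR-204-5p (21.28 and 21.38, fitted values that depend on the prior count), miR-727a-5p (2.71 and 2.75), miR-725-3p (3.29 and 3.47), miR-430c-3p (3.75 and 2.50), miR-430b-1-3p (4.67 and 2.47), miR-145-5p (1.96 and 2.42), miR-30e-2-3p (1.78 and 1.85), miR-34a-5p (2.04 and 1.99) and miR-22a-2-3p (1.84 and 1.72). Below 0 were miR-205-5p (-5.32 and -6.03), miR-31a-5p (-6.40 and -5.95), let-7b-3p (-5.41 and -5.20), miR-203b-3p (-3.44 and -4.42), miR-31a-3p (-8.64 and -8.72), miR-135b-3p (-9.13 and -7.46), miR-184b-3p (-3.05 and -4.41), miR-184a-3p (-2.88 and -4.14), let-7a-5-3p (-2.46 and -2.49) and miR-457a-5p (-2.33 and -2.13). The values of miR-31a-3p and miR-135b-3p depend on the prior count too, with at most 3 counts in each MT_Fe_Ov library of D30. For miR-135b-3p the SE of the D30 minus D120 difference was 1.71. The miRNAs of both directions were chosen by their large fold at D30, so the sign and a large size at D30 were given by that choice. The test used the same D30 libraries, so most of these calls followed from the choice and are no independent result. The D10 samples held tissue beside the gonad, so stage and sampled tissue cannot be told apart for D30 minus D10.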

How the results depend on the processing

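The direction of each DEM was the same under DESeq2, RLE scaling and library totals. The count of higher and lower DEMs (47 and 24) was 44 and 32 with DESeq2, 45 and 27 with RLE, 41 and 31 with library totals, 54 and 23 with a minimum of 1 count, and 44 and 25 or 42 and 24 with miR-204-5p removed before TMM or total scaling, an alternative chosen after seeing the data. Higher DEMs made up 66.2% of calls, 57.9% with DESeq2 and 56.9% with library totals. An adjusted p of 0.01 left 25 higher and 15 lower, the 6 ovary libraries alone gave 27 higher and 21 lower, thinned counts gave 27 higher and 19 lower, and all 27 libraries gave 81 higher and 45 lower; these settings also tested other numbers of miRNAs, except the stricter p. The D30 minus D10 difference was called for 59 miRNAs at an adjusted p of 0.01 and for 57 with the 12 ovary libraries alone. The difference in miRNAs detected was -1.33 (exact permutation p = 0.9) when at least 3 expected counts were asked for.

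Leaving out 1 library at a time gave 31 to 50 higher DEMs, 22 to 33 lower DEMs, 64 to 96 calls for D30 minus D120 and 69 to 114 for D30 minus D10, a difference of 2.77 to 7.78 miRNAs detected and of -0.574 to 3.67 percentage points in the share of the leading miRNAs. Without MT_Fe_Ov replicate 3, miR-9-5p reversed to -0.41 and miR-135a-2-5p to -4.22 on the log2 scale, and their highest values were 7.91 and 7.16. Same-numbered libraries did not deviate together (Pearson's r of -0.112, 0.05 and 0.00596). So few pairs cannot exclude that libraries of the same number were handled together. A replicate block gave 33 higher and 18 lower DEMs, 73 calls for D30 minus D120 and 82 for D30 minus D10. The MT_Fe_Ov depth limits values under 28.0, 55.0 and 8.54 RPM.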
